A study of Mus musculus with 11 samples.

Results

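This account covers 38 mouse genes of nucleotide and one-carbon synthesis in a mouse model of MYC-driven thymic lymphoma with and without the de novo DNA methyltransferase Dnmt3b. The genes were chosen by name, from the de novo purine and pyrimidine pathways, folate-dependent one-carbon metabolism, deoxynucleotide supply, purine salvage and the nucleoside kinases. A gene was represented by the probe set that carried its symbol alone and, where several did, by the one with the highest mean over the 11 arrays. This found 37 of the 38 genes, out of 19938 genes represented in the same way. Impdh2 had no probe set of its own symbol and is not analysed here. None of the 37 lay at the lower limit of the deposited values in any sample, and all of them entered every test.

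RNA of FVB mice was hybridised to 11 whole-transcript arrays, 1 for each sample and each from 300 ng of RNA. The 3 normal samples were thymocytes of 24-day-old mice of genotype EμSR-tTA;Teto-Cre;Rosa26LOXPEGFP;Dnmt3b+/+, which carry Cre but no MYC transgene. The 3 wild-type lymphomas came from EμSR-tTA;Teto-MYC;Rosa26LOXPEGFP;Dnmt3bF/F mice, whose Dnmt3b alleles are floxed and which carry no Cre. The 3 Dnmt3b-/- lymphomas came from mice that carry Teto-Cre along with EμSR-tTA, Teto-MYC and Rosa26LOXPEGFP and are Dnmt3b-/-, and the 2 pre-tumor samples were thymocytes of 24-day-old mice of that last genotype. All 4 groups share the EμSR-tTA driver, which switches the Teto transgenes on in lymphoid cells, and the Rosa26 reporter, which turns on EGFP after Cre has acted. Among the lymphomas, Cre and the Dnmt3b genotype therefore go together. The lymphomas were taken when tumor burden was apparent, at no stated age, and were lysed without sorting, while pre-tumor thymocytes were sorted for EGFP. The labels call the samples biological replicates.

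Purine and pyrimidine nucleotides are built on PRPP, an activated ribose. Purine rings are assembled on it step by step up to IMP, the precursor of AMP and GMP, whereas the pyrimidine ring is closed first and then joined to it to give UMP. Folate carries the one-carbon units, mostly taken from serine, that 2 of the ring-forming reactions of purines and the making of thymidylate consume. Ribonucleotide reductase turns ribonucleotides into the deoxynucleotides of DNA, and salvage enzymes and kinases recover bases and nucleosides. MYC is known to bind and raise many of these genes in dividing cells, and thymocytes are known for a strong dependence on adenosine deaminase and deoxycytidine kinase.

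Levels are the deposited values on a log2 scale, so a difference of 1 is a doubling, and they compare samples for one gene, not one gene with another. The deposited values stop at a floor of 3.32, on which 23.6% to 25.7% of the probe sets of an array lay, array medians ran from 4.55 to 4.62, and samples of one group correlated at 0.968 to 0.985 over all probe sets. Arrays carry no count depth, so the number of samples limits the precision. Dnmt3b itself read between 5.07 and 5.70 on all 11 arrays and did not separate the genotypes (adjusted p = 0.899 between the lymphoma groups, limma), and the arrays do not show whether its probes lie in the deleted part. The mouse Myc probe set read 7.77 to 8.13 in normal samples and 4.29 to 5.87 in the 8 MYC-transgenic ones. The mean level of 8 thymocyte marker genes, of which 6, 5 and 3 fell in wild-type lymphomas, Dnmt3b-/- lymphomas and pre-tumor samples, ran from 10.46 to 10.75 in normal samples, 8.82 to 9.39 in wild-type lymphomas, 9.09 to 9.32 in Dnmt3b-/- lymphomas and 9.65 to 10.07 in pre-tumor samples. For 9 macrophage markers, of which 3 fell in each MYC-transgenic group and none rose, the ranges were 4.97 to 5.34, 4.44 to 5.58, 4.26 to 4.82 and 4.07 to 4.22 in the same order. Adgre1 and Mrc1 were at the floor in pre-tumor samples. For 8 neutrophil markers, of which none rose or fell, the ranges were 4.93 to 5.40, 4.22 to 6.68, 4.10 to 6.13 and 4.02 to 4.07. For 5 dendritic cell markers, of which 0, 3 and 4 fell in wild-type lymphomas, Dnmt3b-/- lymphomas and pre-tumor samples, they were 6.58 to 7.03, 6.03 to 6.63, 5.52 to 5.76 and 5.75 to 6.0. Among 6 B cell, 5 epithelial, 6 stromal and endothelial and 4 erythroid markers, none rose and at most 2 of a list fell in any group. Over all probe sets 10.3%, 10.5% and 9.88% fell in wild-type lymphomas, Dnmt3b-/- lymphomas and pre-tumor samples, and 22.9%, 23.1% and 21.3% of those over 5 on at least 2 arrays. The part of these markers in the differences below was not tested, and in such bulk RNA fewer cells of a type and less RNA per cell cannot be told apart.

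Most of the pathway stood higher in all 3 MYC-transgenic groups than in normal thymocytes. Against normal, 22 of the 37 genes rose and 3 fell in wild-type lymphomas, 24 rose and 3 fell in Dnmt3b-/- lymphomas, and 21 rose and 3 fell in pre-tumor thymocytes (limma, Benjamini-Hochberg adjusted p under 0.05 over 28939 probe sets). The background over all tested probe sets was 9.58% higher and 10.3% lower in wild-type lymphomas, 9.7% and 10.5% in Dnmt3b-/- lymphomas, and 9.69% and 9.88% in pre-tumor samples. The mean levels of the 37 genes lay at the 69.7th percentile of all probe sets or above, so the share among probe sets over a level of 5 on at least 2 arrays is the closer measure, and there it was 24.3% higher and 22.9% lower, 23.9% and 23.1%, and 23% and 21.3%. The genes that rose were 59.5%, 64.9% and 56.8% of the 37. The median difference of the 37 was 0.71, 0.98 and 0.72, beside 0, 0 and -0.02 over all probe sets and -0.04, -0.02 and -0.07 over those above 5 on at least 2 arrays. These 3 comparisons share the normal samples, so their likeness carries no independent weight.

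Of the 37 genes, 21 rose in each of the 3 MYC-transgenic groups. They were Prps1 of PRPP synthesis; Ppat, Gart, Pfas, Paics, Atic, Gmps and Adss of purine synthesis; Cad, Umps and Ctps of pyrimidine synthesis; Slc19a1, Shmt1, Shmt2, Mthfd1 and Mthfd1l of one-carbon metabolism; Rrm1, Nme1 and Nme2 of deoxynucleotide supply; and the salvage genes Hprt and Aprt. Impdh1 and Dck fell in each of them. Another 9 genes passed the test in none, namely Prps2, Ctps2, Tyms, Dut, Dctpp1, Ada, Pnp, Tk1 and Uck2. The remaining 5 passed in 1 or 2 groups, Adsl, Dhodh and Mthfd2 upward and Rrm2 and Dguok downward. The shares of all probe sets that passed in all 3 groups or in none were not counted. These counts over the 3 groups therefore stand without a background.

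**Figure D1:**
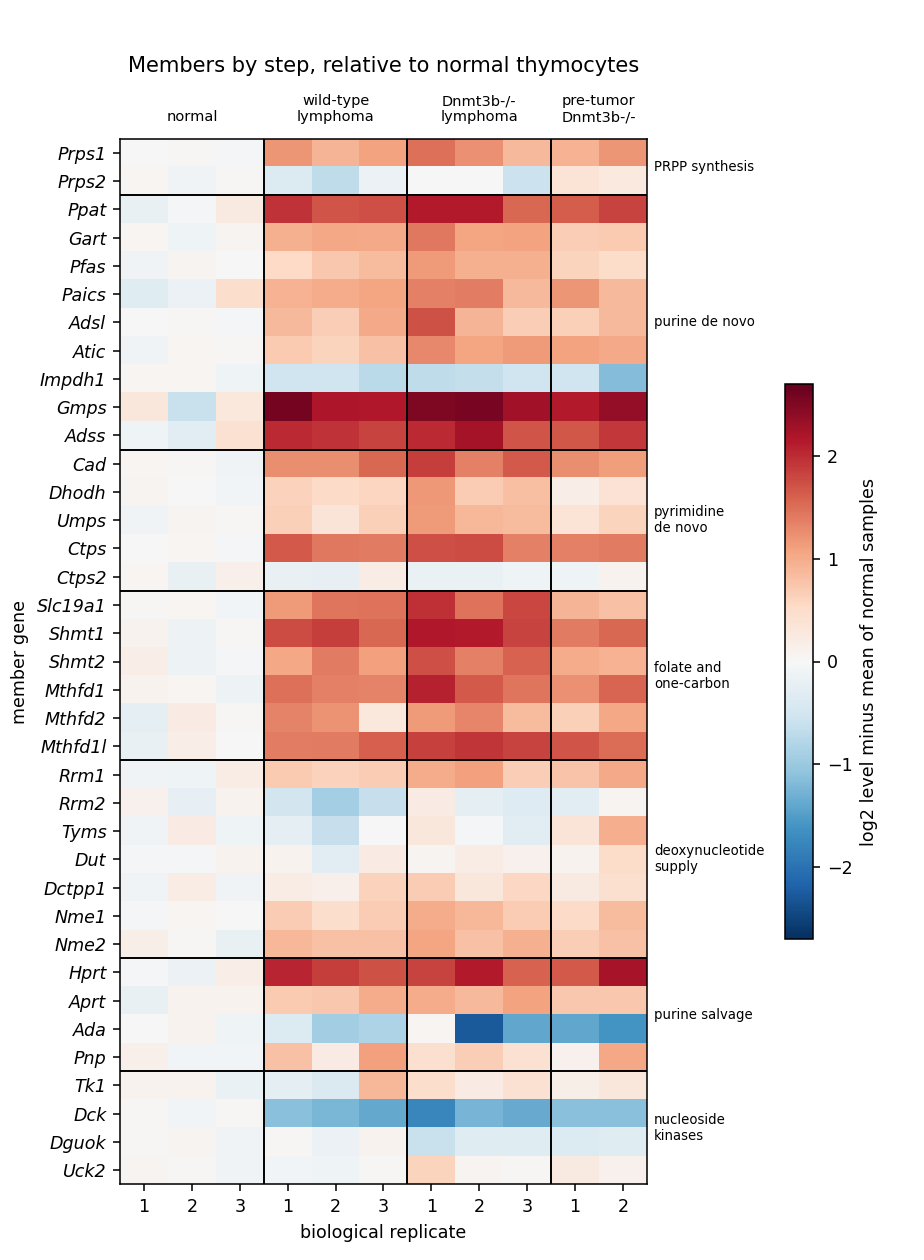
Colours show the log2 level of each of the 37 genes (rows, by step) in each of the 11 samples (columns, by group) minus the mean of the 3 normal samples, red for higher and blue for lower. Purine and folate genes are red throughout the 8 MYC-transgenic samples apart from Impdh1, while the rows of deoxynucleotide supply and the kinases are pale or mixed and Dck is blue.

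The start regions of 4 of these genes are shown because MYC, with its partner MAX, is known to bind the E-box CACGTG. They are Paics, Atic and Nme1, the 3 motif holders with the largest differences in wild-type lymphomas, and Dck, which fell and holds none. Each window runs from 250 bases before to 50 bases after the start annotated by RefSeq on GRCm38.p6, is written 5′ to 3′ on the gene's strand and has the E-box in capitals. Paics lies at chr5:76951052-76951351 and Atic at chr1:71556906-71557205, both on the plus strand. Nme1 lies at chr11:93967976-93968275 on the minus strand, and Dck at chr5:88764763-88765062 on the plus strand.
Paics: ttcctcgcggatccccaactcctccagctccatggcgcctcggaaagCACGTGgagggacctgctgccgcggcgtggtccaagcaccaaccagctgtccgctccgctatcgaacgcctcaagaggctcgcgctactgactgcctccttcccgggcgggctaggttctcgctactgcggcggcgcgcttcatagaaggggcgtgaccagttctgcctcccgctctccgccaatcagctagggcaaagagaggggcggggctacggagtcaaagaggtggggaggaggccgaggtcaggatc
Atic: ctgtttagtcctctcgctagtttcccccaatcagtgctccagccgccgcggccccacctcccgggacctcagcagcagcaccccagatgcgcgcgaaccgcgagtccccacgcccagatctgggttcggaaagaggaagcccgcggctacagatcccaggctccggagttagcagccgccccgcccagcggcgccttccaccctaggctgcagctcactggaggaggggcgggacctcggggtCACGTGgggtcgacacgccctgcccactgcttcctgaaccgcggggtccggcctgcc
Nme1: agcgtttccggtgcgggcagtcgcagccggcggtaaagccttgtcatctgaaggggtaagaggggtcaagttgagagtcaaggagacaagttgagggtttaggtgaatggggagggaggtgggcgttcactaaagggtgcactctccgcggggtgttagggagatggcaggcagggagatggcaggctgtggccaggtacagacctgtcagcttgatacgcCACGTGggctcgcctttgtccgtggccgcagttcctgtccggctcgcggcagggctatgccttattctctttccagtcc
Dck: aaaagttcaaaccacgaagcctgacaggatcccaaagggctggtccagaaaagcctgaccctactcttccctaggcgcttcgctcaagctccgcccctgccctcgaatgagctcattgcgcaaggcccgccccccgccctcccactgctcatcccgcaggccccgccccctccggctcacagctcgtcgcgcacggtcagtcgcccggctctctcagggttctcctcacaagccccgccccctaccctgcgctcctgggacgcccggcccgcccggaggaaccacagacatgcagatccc
The motif began 203 bases before the annotated start in Paics, 7 before it in Atic, and 29 before it in the window shown for Nme1, and another annotated Nme1 start had one 18 before it. Of the 38 genes, 36 had a window in the RefSeq table, and 5 of those 36 (13.9%) held CACGTG, which reads the same on both strands, against 8.09% of 27025 genes. The other 2 holders were Impdh2 and Tyms, of which Impdh2 is not measured and Tyms passed no test. Of the 21 genes that rose in all 3 groups, 20 had a window and 17 of these held no CACGTG, among them Gmps, Adss, Ppat, Hprt and Shmt1. Sequences of the E2F type (TTTGGCGC, TTTCGCGC, TTTCCCGC or TTTGCCGC, on either strand) were found in the windows of Ppat and Prps2, 5.56% of the 36 against 2.61% of all genes. The annotated starts of Paics and Ppat lie 276 bases apart on opposite strands, and both genes rose in all 3 groups. These letters describe the windows and show no binding.

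In PRPP synthesis, 1 of the 2 synthetase genes rose in each group and the other passed in none. Prps1, which makes PRPP, read 8.17, 8.20 and 8.11 in the normal samples, 9.35, 9.09 and 9.26 among wild-type lymphomas, 9.64, 9.39 and 9.03 in Dnmt3b-/- lymphomas and 9.11 and 9.35 in pre-tumor samples. Every MYC-transgenic sample lay above every normal one, by 1.07 ± 0.15 (SE), 1.20 ± 0.15 and 1.07 ± 0.17 as group means, or 2.1-fold, 2.29-fold and 2.1-fold (adjusted p = 0.00317, 0.0018 and 0.00629, limma). Prps2, its isoenzyme, read 8.19, 8.05 and 8.18 in normal samples, 7.77, 7.45 and 7.98 among wild-type lymphomas, 8.14, 8.13 and 7.56 in Dnmt3b-/- lymphomas and 8.50 and 8.41 in pre-tumor samples. Wild-type lymphomas lay below and pre-tumor samples above the normal range, and none of the 3 differences passed the test (-0.41, -0.20 and 0.32, adjusted p = 0.188, 0.588 and 0.365, limma). The Prps1 call in pre-tumor samples was lost without pre-tumor replicate 2 (adjusted p = 0.0588).

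In de novo purine synthesis, 7 of 9 measured genes rose in wild-type lymphomas, 8 in Dnmt3b-/- lymphomas and 7 in pre-tumor samples, with median differences of 1.00, 1.19 and 1.04. Impdh1 was the 1 gene of the pathway that fell, and it did so in all 3 groups. The 3 largest rises were at the entry and at the branches to AMP and GMP. Gmps, which makes GMP from XMP, read 7.09, 6.18 and 7.06 in normal samples, 9.37, 8.96 and 8.93 among wild-type lymphomas, 9.29, 9.34 and 9.05 in Dnmt3b-/- lymphomas and 8.92 and 9.15 in pre-tumor samples. All 8 MYC-transgenic samples lay above the normal ones, and their 3 groups overlapped. Its differences were 2.31 ± 0.25, 2.45 ± 0.25 and 2.26 ± 0.28 (4.96-fold, 5.47-fold and 4.78-fold; adjusted p = 0.00129, 0.00092 and 0.00306, limma), the largest of the 37 genes in each comparison.

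Adss, which takes IMP to adenylosuccinate on the way to AMP, read 6.30, 6.12 and 6.82 in normal samples, 8.42, 8.37 and 8.24 among wild-type lymphomas, 8.43, 8.65 and 8.11 in Dnmt3b-/- lymphomas and 8.08 and 8.33 in pre-tumor samples. All 8 transgenic samples lay above the normal ones, by 1.93 ± 0.20, 1.98 ± 0.20 and 1.79 ± 0.23 (adjusted p = 0.00113, 0.000888 and 0.00312, limma). Ppat, the amidotransferase that commits PRPP to purines, ran from 7.02 to 7.45 in normal samples and from 8.77 to 9.35 in the other 8, with differences of 1.80, 1.94 and 1.73. The ring-building enzymes between them had smaller rises. Gart, which catalyses 3 of the steps on 1 polypeptide, rose by 1.00, 1.19 and 0.69, and Paics, which catalyses 2, by 1.00, 1.21 and 1.04.

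Atic, which closes the ring in the last 2 steps to IMP, read 8.65, 8.80 and 8.78 in normal samples, 9.45, 9.35 and 9.54 among wild-type lymphomas, 10.04, 9.81 and 9.90 in Dnmt3b-/- lymphomas and 9.83 and 9.77 in pre-tumor samples. Its order was normal, wild-type lymphoma and then both Dnmt3b-/- groups, which overlapped each other, and its rises were 0.71, 1.17 and 1.06 (adjusted p = 0.00106, 0.000172 and 0.000978, limma). Pfas, which makes the formylglycinamidine intermediate, read 7.70, 7.86 and 7.81 in normal samples, 8.33, 8.51 and 8.65 among wild-type lymphomas, 8.93, 8.75 and 8.75 in Dnmt3b-/- lymphomas and 8.38 and 8.29 in pre-tumor samples, with rises of 0.71, 1.02 and 0.55. Adsl, the lyase used both before IMP and on the way to AMP, passed the test in Dnmt3b-/- lymphomas (1.11, adjusted p = 0.0182) and missed it in wild-type lymphomas (0.85, adjusted p = 0.0501) and pre-tumor samples (0.76, adjusted p = 0.106, limma). Its levels ran from 8.26 to 8.32 in normal samples and from 8.93 to 10.01 in the other 8. Impdh1, which oxidises IMP to XMP just ahead of Gmps, read 8.65, 8.66 and 8.49 in normal samples, 8.07, 8.07 and 7.87 among wild-type lymphomas, 7.90, 7.96 and 8.07 in Dnmt3b-/- lymphomas and 8.07 and 7.43 in pre-tumor samples. The values of 8.07 were identical to the last digit in all of these samples, and why was not tested. All 8 transgenic samples lay below the normal ones, and the gene fell by 0.60, 0.62 and 0.85 on the log2 scale (adjusted p = 0.0319, 0.0266 and 0.0141, limma). Its isoenzyme gene Impdh2 was not measured, so these values cover only part of this step.

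Some of these calls rested on single libraries. The Impdh1 call in wild-type lymphomas was lost without any 1 of the normal or wild-type samples or without Dnmt3b-/- replicate 2 (adjusted p from 0.0516 to 0.0996 over these and other settings), and in Dnmt3b-/- lymphomas without normal replicate 1 (0.0791) or 2 (0.0868) or tumor replicate 1 (0.0784) or 2 (0.0796). Paics, whose normal replicate 3 read 10.38 beside 9.59 and 9.75, lost its call in wild-type lymphomas without normal replicate 1 (0.0584) or 2 (0.0701) or any 1 wild-type replicate (0.0547 to 0.0578), and in pre-tumor samples without normal replicate 1 (0.0658) or 2 (0.0809) or pre-tumor replicate 1 (0.128) or 2 (0.0918). Adsl in Dnmt3b-/- lymphomas lost its call without normal replicate 1 (0.0537), 2 (0.0542) or 3 (0.0516), and passed in wild-type lymphomas (0.00425) and pre-tumor samples (0.011) without Dnmt3b-/- replicate 1, and in wild-type lymphomas also without replicate 3 (0.0328). Without pre-tumor replicate 2, Gart (0.0566) and Pfas (0.0539) missed the threshold in the pre-tumor comparison.

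**Figure D2:**
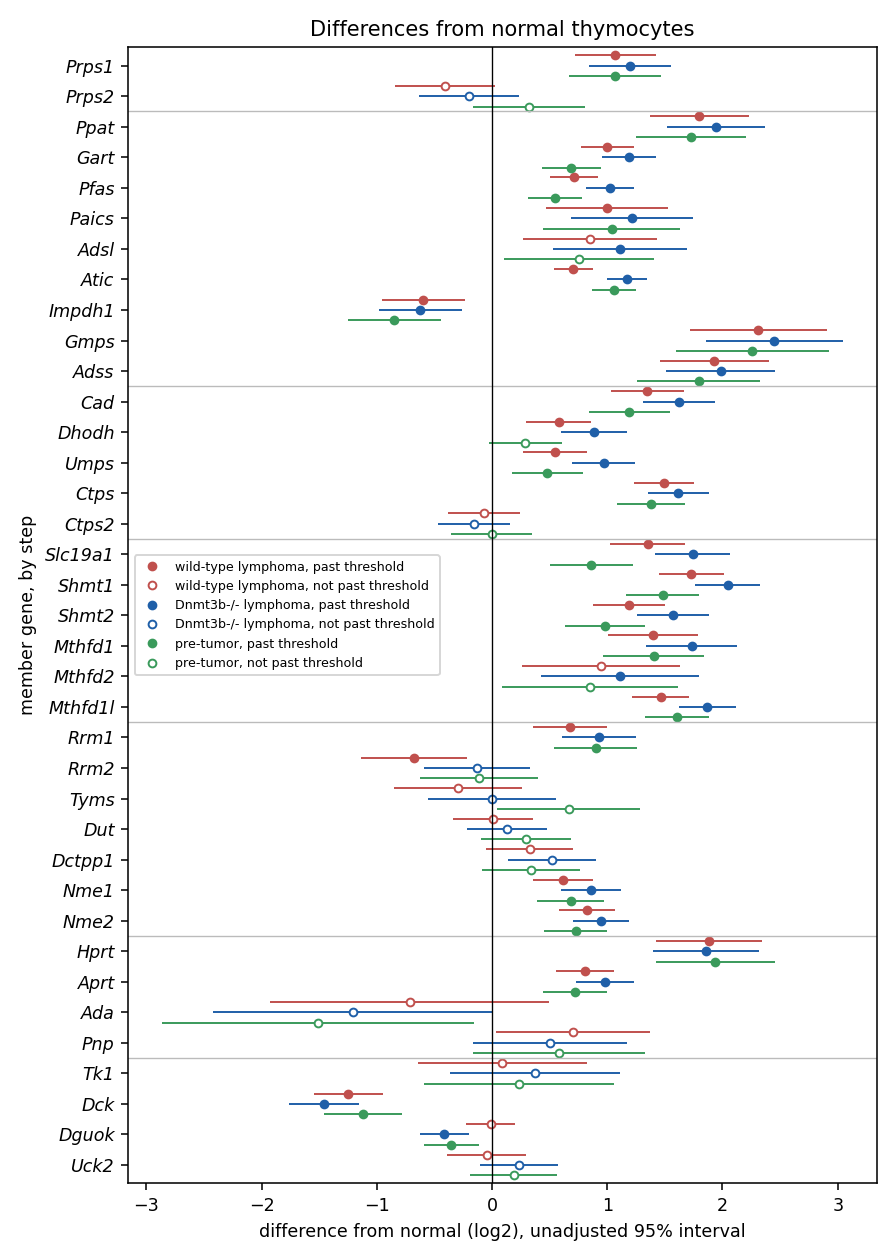
Points are the differences of group means from normal on the log2 scale for each of the 37 genes, with unadjusted 95% intervals from limma, filled where the adjusted p was under 0.05. Intervals of the 3 groups overlap for most genes, and Impdh1, Dck, Dguok and Rrm2 hold the filled points left of 0.

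In de novo pyrimidine synthesis most genes rose. Of 5 genes, 4 rose in each lymphoma group and 3 in pre-tumor samples, with median differences of 0.58, 0.97 and 0.48. Cad, the protein that carries the first 3 steps, read 7.57, 7.56 and 7.43 in normal samples, 8.77, 8.77 and 9.06 among wild-type lymphomas, 9.38, 8.88 and 9.17 in Dnmt3b-/- lymphomas and 8.78 and 8.64 in pre-tumor samples. The Cad values of wild-type replicates 1 and 2 were identical to the last digit. The normal samples lay apart from the rest, and the rises were 1.35 ± 0.14, 1.62 ± 0.14 and 1.19 ± 0.15 (2.55-fold, 3.08-fold and 2.28-fold; adjusted p = 0.001, 0.000448 and 0.00312, limma). Ctps, which aminates UTP to CTP, read 6.26, 6.32 and 6.24 in normal samples, 7.93, 7.70 and 7.67 among wild-type lymphomas, 8.01, 8.03 and 7.63 in Dnmt3b-/- lymphomas and 7.63 and 7.67 in pre-tumor samples. All 8 transgenic samples lay above the normal ones, and its rises were 1.49, 1.62 and 1.38 (adjusted p = 0.000444, 0.000251 and 0.00134, limma). Its isoenzyme gene Ctps2 kept within 7.09 to 7.52 over all 11 samples and passed no test.

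Dhodh, the mitochondrial dehydrogenase of the pathway, read 6.10, 6.03 and 5.94 in normal samples, 6.65, 6.55 and 6.61 among wild-type lymphomas, 7.19, 6.70 and 6.84 in Dnmt3b-/- lymphomas and 6.21 and 6.42 in pre-tumor samples. No group overlapped another, in the order normal, pre-tumor, wild-type lymphoma and Dnmt3b-/- lymphoma, and the same held for Gart of purine synthesis. The differences of Dhodh from normal were 0.58 (adjusted p = 0.0147), 0.88 (0.00244) and 0.29 (0.198, limma). Umps, which makes UMP in the last 2 steps, read 7.99, 8.16 and 8.11 in normal samples, 8.74, 8.43 and 8.73 among wild-type lymphomas, 9.24, 8.98 and 8.95 in Dnmt3b-/- lymphomas and 8.45 and 8.69 in pre-tumor samples. It rose by 0.55, 0.97 and 0.48 (adjusted p = 0.0161, 0.0015 and 0.0408, limma), and pre-tumor samples lay within the range of wild-type lymphomas. The Umps call was lost in wild-type lymphomas without normal replicate 1 (0.0541) or wild-type replicate 1 (0.0618) and in pre-tumor samples under 10 of 19 alternatives (0.0523 to 0.283), among them without any 1 normal sample, wild-type replicate 1 or 3, Dnmt3b-/- replicate 2 or 3, or pre-tumor replicate 2, and the Dhodh call in wild-type lymphomas without wild-type replicate 1 (0.0552).

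The folate and one-carbon genes had the highest median rise of the steps, 1.37, 1.74 and 1.19, with 5, 6 and 5 of 6 genes past the test. Slc19a1, the carrier that brings reduced folate into the cell, read 7.19, 7.21 and 7.08 in normal samples, 8.30, 8.60 and 8.62 among wild-type lymphomas, 9.12, 8.62 and 8.96 in Dnmt3b-/- lymphomas and 8.08 and 7.96 in pre-tumor samples. Normal, pre-tumor and lymphoma samples lay in that order with no overlap between the stages. Its rises were 0.86 ± 0.16 in pre-tumor samples, 1.35 ± 0.14 in wild-type and 1.74 ± 0.14 in Dnmt3b-/- lymphomas (adjusted p = 0.00942, 0.00105 and 0.000401, limma). Shmt1, the cytosolic enzyme that moves a carbon from serine to folate, read 6.51, 6.27 and 6.45 in normal samples, 8.17, 8.28 and 7.96 among wild-type lymphomas, 8.57, 8.56 and 8.24 in Dnmt3b-/- lymphomas and 7.82 and 7.96 in pre-tumor samples. All 8 transgenic samples were more than 1 unit above the normal ones, and the rises of 1.73 ± 0.12, 2.05 ± 0.12 and 1.48 ± 0.14 (3.32-fold, 4.13-fold and 2.79-fold; adjusted p = 0.000386, 0.000151 and 0.00136, limma) included the lowest adjusted p of the 37 genes in wild-type lymphomas.

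On the mitochondrial side, Shmt2, the counterpart of Shmt1, read 8.26, 7.96 and 8.04 in normal samples, 9.12, 9.50 and 9.20 among wild-type lymphomas, 9.82, 9.45 and 9.69 in Dnmt3b-/- lymphomas and 9.09 and 9.03 in pre-tumor samples. Its rises were 1.19, 1.57 and 0.98 (adjusted p = 0.00136, 0.000481 and 0.00548, limma), with the normal samples below all others. Mthfd1l, which releases formate from mitochondria for use in purine synthesis, read 6.59, 6.98 and 6.79 in normal samples, 8.16, 8.20 and 8.39 among wild-type lymphomas, 8.63, 8.72 and 8.61 in Dnmt3b-/- lymphomas and 8.49 and 8.31 in pre-tumor samples. It rose by 1.46 ± 0.11, 1.87 ± 0.11 and 1.61 ± 0.12 (2.76-fold, 3.65-fold and 3.05-fold; adjusted p = 0.000414, 0.000138 and 0.000937, limma). Mthfd1, the cytosolic enzyme that takes the formate up again, rose by 1.40, 1.73 and 1.40. Mthfd2, the mitochondrial enzyme between Shmt2 and Mthfd1l, varied more, from 6.64 to 7.68 in wild-type lymphomas against 6.10 to 6.57 in normal samples, and passed in Dnmt3b-/- lymphomas (1.11, adjusted p = 0.034) but not in wild-type lymphomas (0.95, 0.061) or pre-tumor samples (0.85, 0.121, limma). The Mthfd2 calls turned on single libraries: without wild-type replicate 3 it passed in wild-type lymphomas (0.00956) and pre-tumor samples (0.0337), and in Dnmt3b-/- lymphomas it was lost without normal replicate 1 (0.105), 2 (0.0612) or 3 (0.0803) or tumor replicate 1 (0.0877) or 2 (0.111). Without pre-tumor replicate 2, Slc19a1 missed the threshold in the pre-tumor comparison (0.0555).

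**Figure D3:**
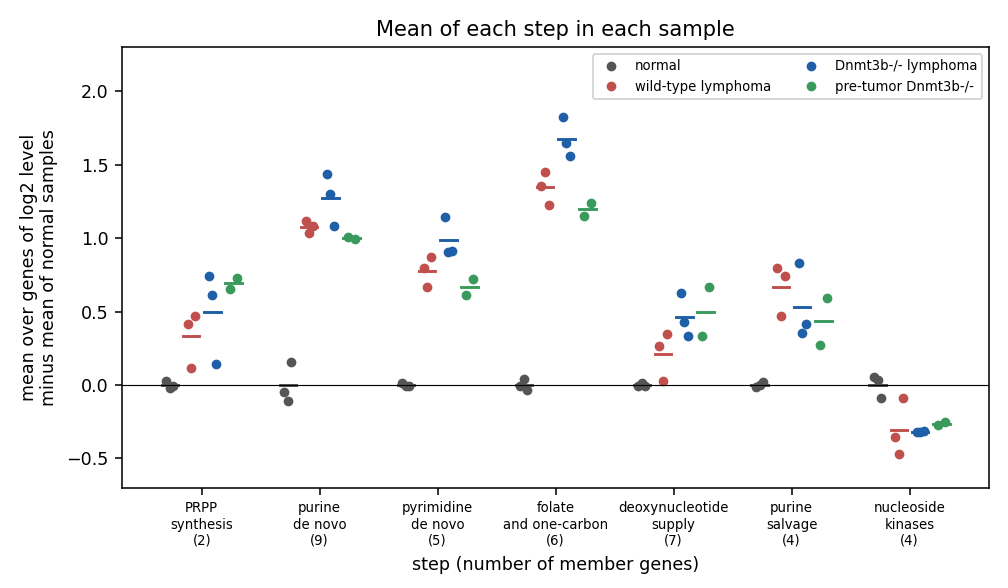
Each point is 1 sample, placed at the mean over the genes of a step of its log2 level minus the mean of the normal samples, and bars are group means. Folate genes reach 1.15 to 1.82 and purine genes 0.99 to 1.44 in the 8 MYC-transgenic samples, whereas deoxynucleotide supply stays at 0.03 to 0.67 and the mean of the nucleoside kinases lies below 0. The kinases had median differences of only -0.03, -0.09 and -0.08 in wild-type lymphomas, Dnmt3b-/- lymphomas and pre-tumor samples, beside -1.25, -1.46 and -1.12 for Dck.

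The genes of deoxynucleotide supply divided. Of 7, 3 rose in each MYC-transgenic group, and 1 fell in wild-type lymphomas, with median differences of 0.33, 0.52 and 0.66. Those that rose were Rrm1, the large subunit of ribonucleotide reductase (0.68, 0.93 and 0.90), and the nucleoside diphosphate kinase genes Nme1 (0.62, 0.86 and 0.68) and Nme2. Nme2 read 7.36, 7.24 and 7.01 in normal samples, 8.10, 7.99 and 7.99 among wild-type lymphomas, 8.28, 8.0 and 8.17 in Dnmt3b-/- lymphomas and 7.87 and 8.0 in pre-tumor samples. The normal samples were the lowest, and its rises were 0.82, 0.95 and 0.73 (adjusted p = 0.0022, 0.00113 and 0.00673, limma). Nme1 and Nme2 are neighbouring genes of similar sequence, so their probe sets may share signal.

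Rrm2, the small subunit of the same reductase, went the other way from Rrm1 in wild-type lymphomas. It read 9.56, 9.22 and 9.52 in normal samples, 8.94, 8.51 and 8.82 among wild-type lymphomas, 9.66, 9.18 and 9.08 in Dnmt3b-/- lymphomas and 9.14 and 9.50 in pre-tumor samples. Wild-type lymphomas lay below all other samples, and the other 3 groups overlapped. It fell by 0.68 on the log2 scale in wild-type lymphomas at the edge of the threshold (adjusted p = 0.0498, limma), a call lost under 12 of 19 alternatives (0.0553 to 0.145), among them without any 1 normal, wild-type or pre-tumor sample or without Dnmt3b-/- replicate 2 or 3. Thymidylate synthase Tyms, chosen for its full values after these were seen, read 7.00, 7.30 and 6.96 in normal samples, 6.83, 6.47 and 7.08 among wild-type lymphomas, 7.40, 7.04 and 6.81 in Dnmt3b-/- lymphomas and 7.43 and 8.07 in pre-tumor samples. The lymphomas overlapped the normal range and both pre-tumor samples lay above it, with no test passed (adjusted p = 0.488, 1 and 0.134, limma). The nucleotide pool cleaners Dut, which removes dUTP, and Dctpp1, which removes modified dCTP, passed in no group either. Dctpp1 in Dnmt3b-/- lymphomas (0.52, adjusted p = 0.0656) did pass without wild-type replicate 3 (0.0338), and in the pre-tumor comparison the calls of Rrm1 (0.074), Nme1 (0.0784) and Nme2 (0.0619) were lost without pre-tumor replicate 2.

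Genes of DNA replication and mitosis, given because several members of this step are used in S phase, gave the counts below. Over all probe sets 9.58%, 9.7% and 9.69% rose and 10.3%, 10.5% and 9.88% fell in wild-type lymphomas, Dnmt3b-/- lymphomas and pre-tumor samples. Among probe sets over 5 on at least 2 arrays, 24.3%, 23.9% and 23% rose and 22.9%, 23.1% and 21.3% fell. Of 23 S-phase genes, 5 rose and 1 fell in wild-type lymphomas, 7 rose in Dnmt3b-/- lymphomas, and 6 rose and 1 fell in pre-tumor samples, with medians of 0.03, 0.19 and 0.00. The mean level of the list was 7.82 to 7.92 in normal samples, 8.17 to 8.22 in wild-type lymphomas, 8.27 to 8.42 in Dnmt3b-/- lymphomas and 8.18 to 8.31 in pre-tumor samples, above normal in all 8 MYC-transgenic samples. Of 19 mitosis genes, 7, 9 and 9 rose and 1 fell in each, with medians of 0.38, 0.56 and 0.58, and the list means ran from 6.75 to 7.19, 7.53 to 7.91, 7.65 to 7.94 and 7.84 to 8.36 in the same order of groups, again without overlap with normal. Their part in the rise of the nucleotide genes was not tested.

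In purine salvage both phosphoribosyltransferases rose and the nucleoside-degrading pair did not pass. Hprt, which recovers hypoxanthine and guanine and is often used as a reference gene in PCR, read 7.44, 7.32 and 7.64 in normal samples, 9.52, 9.34 and 9.17 among wild-type lymphomas, 9.29, 9.61 and 9.06 in Dnmt3b-/- lymphomas and 9.11 and 9.69 in pre-tumor samples. The 3 transgenic groups overlapped one another and stood 1.88 ± 0.20, 1.86 ± 0.20 and 1.94 ± 0.22 above normal (3.68-fold, 3.62-fold and 3.83-fold; adjusted p = 0.0011, 0.000994 and 0.00233, limma). Aprt, which recovers adenine, read 6.65, 6.95 and 6.94 in normal samples, 7.56, 7.56 and 7.84 among wild-type lymphomas, 7.84, 7.72 and 7.92 in Dnmt3b-/- lymphomas and 7.56 and 7.56 in pre-tumor samples. It rose by 0.81, 0.98 and 0.72 (adjusted p = 0.00257, 0.0011 and 0.00746, limma), the last lost without pre-tumor replicate 2 (0.0579). Its value was identical to the last digit in wild-type replicate 2 and both pre-tumor samples. The pre-tumor group therefore adds no spread to the test of Aprt, while the wild-type group does (SD 0.16).

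Ada, adenosine deaminase, was the most variable of the 37 genes in Dnmt3b-/- lymphomas and is given in full for that reason, after its values were seen. It read 7.80, 7.89 and 7.68 in normal samples, 7.42, 6.85 and 6.95 among wild-type lymphomas, 7.84, 5.51 and 6.38 in Dnmt3b-/- lymphomas and 6.39 and 6.17 in pre-tumor samples. Replicate 1 of the Dnmt3b-/- lymphomas lay within the normal range, and the other 7 transgenic samples lay below it. The differences of -0.71, -1.21 and -1.51 missed the threshold (adjusted p = 0.436, 0.166 and 0.119, limma), but without that replicate the fit called Ada lower in Dnmt3b-/- lymphomas (-1.84, adjusted p = 0.0076) and pre-tumor samples (0.0151), the latter also without replicate 2 (0.049). Pnp, the purine nucleoside phosphorylase that acts after Ada, ran from 6.19 to 6.41 in normal samples and from 6.38 to 7.37 in the other 8 and passed in none.

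Among the nucleoside kinases none rose. Dck, which phosphorylates deoxycytidine and purine deoxynucleosides, read 9.47, 9.37 and 9.46 in normal samples, 8.31, 8.20 and 8.05 among wild-type lymphomas, 7.67, 8.18 and 8.06 in Dnmt3b-/- lymphomas and 8.31 and 8.31 in pre-tumor samples. The value was identical to the last digit in wild-type replicate 1 and both pre-tumor samples. The pre-tumor group therefore adds no spread to the test of Dck, while the wild-type group does (SD 0.13). Values equal to the last digit in 2 samples also occurred in Cad, Ctps, Shmt1, Dut and Uck2. Why such equal values occur was not tested. Every transgenic sample lay more than 1 unit below every normal one, and the gene fell by 1.25, 1.46 and 1.12 on the log2 scale, with SE of 0.13, 0.13 and 0.15 (adjusted p = 0.00108, 0.000562 and 0.00327, limma). Dguok, the mitochondrial deoxyguanosine kinase, read 6.22, 6.25 and 6.09 in normal samples, 6.21, 6.04 and 6.27 among wild-type lymphomas, 5.59, 5.87 and 5.85 in Dnmt3b-/- lymphomas and 5.81 and 5.85 in pre-tumor samples. The 5 samples of genotype Dnmt3b-/- lay below the 6 others. Against normal it fell by 0.41 in Dnmt3b-/- lymphomas (adjusted p = 0.0171) and by 0.35 in pre-tumor samples (0.0492, limma), the first lost without normal replicate 1 (0.0561) or 2 (0.0629) and the second under 14 of 19 alternatives (0.0539 to 0.186), among them without any 1 normal or pre-tumor sample, wild-type replicate 1 or 3, or Dnmt3b-/- replicate 2 or 3.

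Tk1, thymidine kinase, read 7.83, 7.82 and 7.54 in normal samples, 7.48, 7.35 and 8.64 among wild-type lymphomas, 8.21, 7.96 and 8.14 in Dnmt3b-/- lymphomas and 7.88 and 8.05 in pre-tumor samples. Wild-type replicate 3 stood above all other samples, and no difference passed. The probe set used for Tk1 sits in the ID order among 8 neighbours that RefSeq places on chromosome 8, while Tk1 is on chromosome 11. A dimmer Tk1 probe set among neighbours of chromosome 11 gave 0.09, 0.47 and 0.26 and passed in no group either (adjusted p = 0.993, 0.272 and 0.645, limma). Uck2, which phosphorylates uridine and cytidine, kept within 9.27 to 9.63 in 10 of the 11 samples, read 9.98 in Dnmt3b-/- replicate 1 and passed in none.

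**Figure D4:**
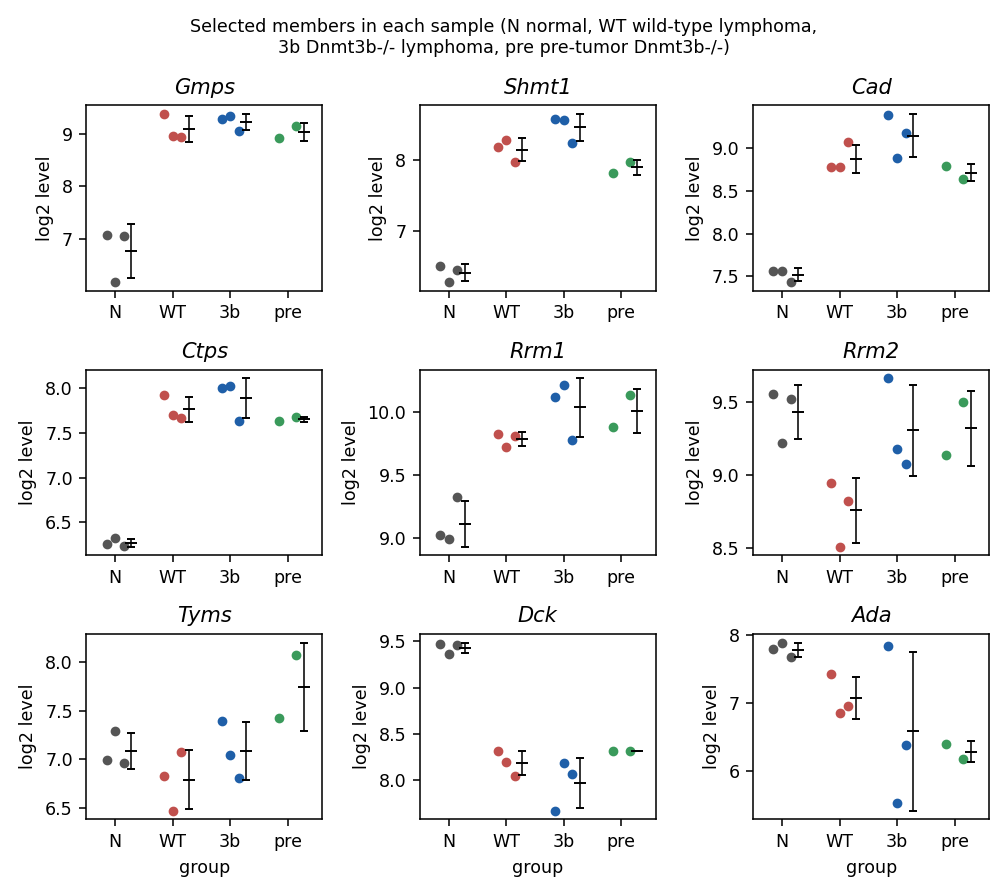
Log2 levels of 9 genes in each sample, with the group mean and SD as a bar beside the points. Gmps, Shmt1, Cad, Ctps and Rrm1 lie higher in all 8 MYC-transgenic samples than in normal ones and Dck lower, while Rrm2 is low in wild-type lymphomas, Tyms is highest in pre-tumor samples and Ada scatters from 5.51 to 7.84 in Dnmt3b-/- lymphomas.

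The comparison of Dnmt3b-/- with wild-type lymphomas asks what loss of the methyltransferase changes among established tumors. None of the 37 genes passed the test (limma), and over all probe sets 0.00691%, or 2, did. That count was 88 without wild-type replicate 3, 82, 9 and 20 without Dnmt3b-/- replicates 1, 2 and 3, 5 without wild-type replicate 1 and 1 without any 1 normal replicate, with 0 of the 37 genes called in each. At an unadjusted p under 0.05 there were 9 genes higher and 1 lower in Dnmt3b-/- lymphomas, beside 3.63% and 2.67% of all probe sets. The differences leaned one way: 30 of 37 were positive with a median of 0.21, against 52% positive and a median of 0.01 over probe sets above 5 on at least 2 arrays. All samples of one group lay above all of the other for 8 genes higher (4.64% of all probe sets) and 1 lower (3.34%). The shares for unadjusted p and for no overlap include 4768 probe sets at the floor on all arrays, which can neither pass nor separate. They were not counted among brighter probe sets, the closer measure for these genes. By step, 8 of 9 purine genes, 4 of 5 pyrimidine genes, 6 of 6 folate genes and 7 of 7 genes of deoxynucleotide supply were positive, but 1 of 4 in purine salvage and 2 of 4 nucleoside kinases.

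The lowest adjusted p belonged to Atic. With the values given above, its Dnmt3b-/- lymphomas (9.81 to 10.04) lay above its wild-type lymphomas (9.35 to 9.54) by 0.47, with an unadjusted interval of 0.30 to 0.64, and adjusted p = 0.268. Umps differed by 0.42 (0.15 to 0.70, adjusted p = 0.614), Mthfd1l by 0.40 (0.16 to 0.65, 0.601) and Pfas by 0.31 (0.10 to 0.52, 0.614), each with no overlap between the groups. Of the other folate genes, Slc19a1 differed by 0.39 (0.07 to 0.72), Shmt2 by 0.38 (0.07 to 0.69) and Shmt1 by 0.32 (0.03 to 0.60), with overlapping samples and adjusted p of 0.748, 0.741 and 0.763. Dhodh differed by 0.31 (adjusted p = 0.764) and Rrm2, of the reductase, by 0.55 (0.09 to 1.01, 0.75), both without overlap. Dguok was the 1 lower gene at -0.40 (-0.62 to -0.19, adjusted p = 0.468, limma), also without overlap.

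For Gmps, Adss, Hprt and Ctps, chosen after their values were seen, the interval of the difference between genotypes included 0. The difference was 0.14 for Gmps (-0.46 to 0.74), 0.05 for Adss (-0.42 to 0.53), -0.03 for Hprt (-0.49 to 0.44) and 0.12 for Ctps (-0.14 to 0.39). These intervals leave room for a difference of either sign. Dnmt3b-/- replicate 1 was the highest of its group for 22 of the 37 genes, replicate 2 for 12 and replicate 3 for 3. Without replicate 1, 29 of 37 differences were positive and the median was 0.13. The S-phase list had a median difference of 0.18 in this comparison, with list means that did not overlap between the genotypes, and the mitosis list 0.11. The mean level of 5 dendritic cell markers (Itgax, Flt3, H2-Aa, H2-Ab1 and Cd74) was 6.03 to 6.63 in wild-type lymphomas and 5.52 to 5.76 in Dnmt3b-/- lymphomas, which did not overlap, with a median difference of -0.96 and none of the 5 past the test. The part of these lists in the comparison was not tested.

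**Figure D5:**
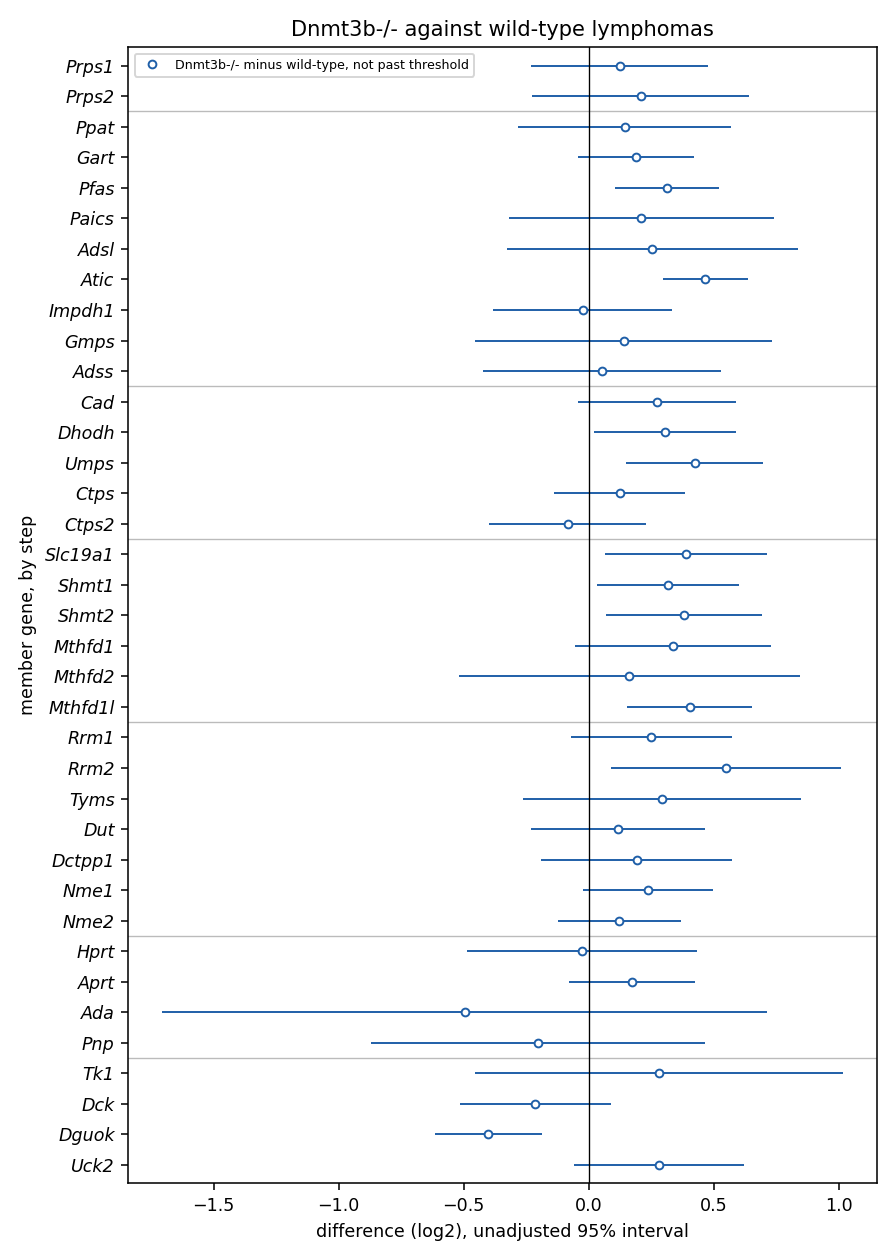
Points are the differences of Dnmt3b-/- minus wild-type lymphomas on the log2 scale for each of the 37 genes, with unadjusted 95% intervals from limma. Most points lie right of 0, all are open because none passed the adjusted test, and Ada has the widest interval.

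The comparisons with pre-tumor thymocytes ask what separates lymphomas from MYC-transgenic thymocytes at 24 days. Between Dnmt3b-/- lymphomas and pre-tumor thymocytes of the same genotype, none of the 37 genes passed (0.0691% of all probe sets, or 20, did, limma). The 20 became 118 without Dnmt3b-/- replicate 1, 51 without its replicate 2, 114 and 52 without pre-tumor replicate 1 or 2, and 8 to 13 without wild-type replicate 1 or 3 or any 1 normal replicate, again with 0 of the 37 genes. At an unadjusted p under 0.05, 8 genes were higher in lymphomas and 2 lower (5.69% and 3.74% of all probe sets), and 28 of 37 differences were positive, beside 49.4% of probe sets above 5. With no overlap between the groups, 10 genes were higher and 4 lower in lymphomas (13.1% and 7.83% of all probe sets). Here too the shares for unadjusted p and for no overlap include probe sets at the floor and were not counted among brighter ones. The 8 with an unadjusted p under 0.05 were Gart and Pfas of purine synthesis, Cad, Dhodh and Umps of pyrimidine synthesis, and Slc19a1, Shmt1 and Shmt2 of folate metabolism, and the 2 lower ones were Prps2 and Tyms. The lowest adjusted p was that of Slc19a1, 0.88 higher in lymphomas with no overlap (interval 0.52 to 1.24, adjusted p = 0.133). Shmt2 and Dhodh, both at 0.59 (adjusted p = 0.261 and 0.212), and Shmt1 at 0.57 (0.236, limma) also showed no overlap, whereas Gmps differed by 0.19 (-0.47 to 0.86). These lymphomas were not sorted and the pre-tumor thymocytes were, so stage and sorting cannot be told apart.

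Wild-type lymphomas against pre-tumor thymocytes differ in genotype as well as stage. Again none of the 37 passed (0.107% of all probe sets, or 31, did, limma), and at an unadjusted p under 0.05, 3 were higher and 4 lower in the lymphomas (4.43% and 3.34%). With no overlap, 6 were higher and 6 lower (11.3% and 8.22%), and 21 of 37 differences were positive with a median of 0.07, beside 47.6% of probe sets above 5. The shares for unadjusted p and for no overlap are again over all probe sets, those at the floor included. Without pre-tumor replicate 1, 15 of 37 were positive and the median was -0.06. The 31 probe sets called became 148 without wild-type replicate 3, 112 and 58 without pre-tumor replicate 1 or 2, and 15 without normal replicate 1, with none of the 37 among them. The 4 lower ones, named after their values were seen, were Atic (-0.35, adjusted p = 0.267), Rrm2 (-0.56, 0.578), Prps2 and Tyms, and the 3 higher ones Slc19a1 (0.49, 0.446), Dguok (0.34, 0.405) and Gart (0.31, 0.515, limma). Slc19a1, Gart, Shmt2 and the pyrimidine gene Dhodh (0.29, adjusted p = 0.692, limma) stood higher in both lymphoma groups than in pre-tumor samples, without overlap. Both comparisons share the same 2 pre-tumor libraries.

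The other genes of nucleotide supply, 42 measured of 48 listed beyond the 38, are given for setting. The background that rose in wild-type lymphomas, Dnmt3b-/- lymphomas and pre-tumor samples was 9.58%, 9.7% and 9.69% of all probe sets. Among probe sets over 5 on at least 2 arrays it was 24.3%, 23.9% and 23%. The background that fell was 10.3%, 10.5% and 9.88%, and 22.9%, 23.1% and 21.3%. Of the 42 supply genes, 15 rose and 3 fell in wild-type lymphomas, 15 and 2 in Dnmt3b-/- lymphomas, and 10 and 3 in pre-tumor samples. Median differences were 0.26, 0.37 and 0.09. The largest rises were those of Adk, which phosphorylates adenosine (2.71, 2.60 and 1.92), Sfxn1, a mitochondrial serine carrier (2.15, 2.45 and 2.28), and Dld, a dehydrogenase shared by the glycine cleavage system and the pyruvate dehydrogenase complex (2.16, 2.27 and 2.40). Mtap, which recovers adenine from methylthioadenosine, stood 2.00 higher in Dnmt3b-/- lymphomas and 1.70 higher in pre-tumor samples. Nme4, a mitochondrial diphosphate kinase, stood 1.60 higher in wild-type lymphomas. Genes that rose were named only up to a fixed number per comparison, so the groups not given for Mtap and Nme4 may hold calls too. No supply gene passed the test between any of the MYC-transgenic groups (limma). Sfxn3, a relative of Sfxn1, fell by 1.27, 1.71 and 1.67, and the uridine kinase gene Uckl1 fell by 0.50, 0.60 and 0.58. Aldh1l1, which oxidises formyl folate, fell by 0.51 in wild-type lymphomas, and Uck1, a uridine-cytidine kinase, by 0.59 in pre-tumor samples.

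Of 24 measured genes of nucleotide breakdown, 4 rose and 1 fell in wild-type lymphomas, 3 rose in Dnmt3b-/- lymphomas, and 1 rose and 1 fell in pre-tumor samples, with medians of -0.01, -0.03 and -0.03. The background that rose was 9.58%, 9.7% and 9.69% of all probe sets, and 24.3%, 23.9% and 23% of those over 5 on at least 2 arrays. The background that fell was 10.3%, 10.5% and 9.88%, and 22.9%, 23.1% and 21.3%. Nt5c3, a pyrimidine nucleotidase, rose in all 3 groups (1.42, 1.27 and 1.57), Nt5c2, a purine nucleotidase, by 1.04 and 1.02 in the lymphomas, and Ampd2, which deaminates AMP, by 0.71 and 0.90. Upb1, of pyrimidine catabolism, rose by 1.57 in wild-type lymphomas, and Entpd5, a nucleoside diphosphatase, fell by 0.53 there and by 0.55 in pre-tumor samples. Single libraries decided several of these calls: in pre-tumor samples Nt5c3 (adjusted p = 0.108), Sfxn3 (0.0731), Uck1 (0.148) and Uckl1 (0.166) missed the threshold without pre-tumor replicate 2, and Nt5c3 did so in Dnmt3b-/- lymphomas without normal replicate 2 (0.0587) or tumor replicate 2 (0.0582). In pre-tumor samples Uck1 was also lost without normal replicate 1 (0.0534) or 2 (0.0645) or pre-tumor replicate 1 (0.0531), and Uckl1 without normal replicate 2 (0.0564) or pre-tumor replicate 1 (0.0807). In wild-type lymphomas Uckl1 was lost without normal replicate 2 (0.0644) or wild-type replicate 1 (0.106) or 2 (0.0827). Aldh1l1, Ampd2, Upb1 and Entpd5 in wild-type lymphomas and Entpd5 in pre-tumor samples each lost their call without any of 7 or more single libraries, with adjusted p up to 0.188 (limma).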

How the data were processed

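The series' table of deposited log2 values, 1 column for each of 11 arrays, was used. Per the submitters' processing notes, Partek and RMA were used. The values stop at log2 of 10 (3.32). Of 35512 probe sets, 6573 with the lowest IDs, probably array controls, were left out, and 28939 were tested. Symbols came from the platform annotation: 21789 probe sets had 1 symbol, 1621 several and 5529 none. Nothing was normalized again. A mean per group was fitted over all 11 arrays with limma 3.58.1 in R 4.3.3 (lmFit, eBayes), and p-values were adjusted over all 28939 probe sets by Benjamini-Hochberg, with a threshold of 0.05. The code was tested on simulated data. Samples were grouped by title, and p-values measure the spread between these samples. The members, the other gene lists and the marker lists were chosen with earlier results of these data known. Values in every sample are given for the 2 members of each step with the largest difference between wild-type lymphomas and normal, for members with an unadjusted p under 0.05 between the lymphoma groups and for members called lower than normal, and up to 4 called genes per direction are named from each other list. Alternatives left out each array, added the replicate number as a block, normalized by quantile, centred medians, used a variance trend, filtered dim probe sets, fitted 2 groups alone, averaged probe sets or asked for a difference of 1 as well. Promoter windows were taken from RefSeq (GRCm38.p6).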

Additional observations from a re-analysis of the deposited data

Results flagged for a closer look

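Prps2 and Tyms lay on opposite sides of the normal mean in different groups, although no difference from normal passed the test. For Prps2, both pre-tumor samples (8.50 and 8.41) lay above the normal mean and all Dnmt3b-/- lymphomas (8.14, 8.13 and 7.56) below it, replicate 1 by less than rounding shows (normal mean 8.14); the direct difference between these groups was -0.52 (adjusted p = 0.495, limma), so it did not pass. All wild-type lymphomas also had Prps2 below normal (7.77, 7.45 and 7.98), and differed from pre-tumor samples by -0.73 (adjusted p = 0.377). For Tyms, both pre-tumor samples (7.43 and 8.07) lay above the normal mean and all wild-type lymphomas (6.83, 6.47 and 7.08) below it (normal mean 7.09), although they overlapped the normal range of 6.96 to 7.30, with a difference of -0.96 (adjusted p = 0.364, limma). Lymphoma stage goes with the lack of sorting here, and the part of either was not tested. Groups of 3 or fewer samples were not searched for outlying samples.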

How the results depend on the processing

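Of 76 calls of single genes against normal, 52 passed under all 19 alternatives and 24 were lost under at least 1, and no called difference turned its sign. The demand for a difference of at least 1 as well is not among these 19. The called genes numbered 25 in wild-type lymphomas (20 to 26 leaving out 1 array), 27 in Dnmt3b-/- lymphomas (23 to 28) and 24 in pre-tumor samples (13 to 26, the lowest without pre-tumor replicate 2). With a difference of at least 1 as well they were 14 in wild-type lymphomas, 19 in Dnmt3b-/- lymphomas and 13 in pre-tumor samples, so many of the 76 calls are of smaller differences. With the replicate block they were 21, 25 and 21. Deviations of same-numbered samples from their group means correlated at -0.33 to 0.32 over the tested probe sets. Samples of different numbers were not compared in this way, and deviations in groups of 2 or 3 depend on one another. These correlations therefore cannot decide whether the numbers pair the samples. Fitting 2 groups alone gave 24, 25 and 16, and ended the pre-tumor calls of Adss (adjusted p = 0.0522), Gmps (0.0581) and Impdh1 (0.124) and the Paics call in Dnmt3b-/- lymphomas (0.0569, limma). Among probe sets over 5 the counts were 28, 29 and 26, and Ada passed as lower in Dnmt3b-/- lymphomas (0.0485) and pre-tumor samples (0.033). The 3 comparisons among MYC-transgenic groups called 0 genes under every alternative. The alternatives for the other lists were added after seeing the data. Breakdown genes called numbered 2 to 5 in wild-type lymphomas leaving out 1 array, 2 with the replicate block and 2 with 2 groups alone; 2 to 5 in Dnmt3b-/- lymphomas; and 0 to 3 in pre-tumor samples, 1 with the replicate block. Supply genes in pre-tumor samples numbered 8 to 16 leaving out 1 array and 5 with 2 groups alone. Groups of 2 or 3 arrays limit what can be detected.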
